A study of Rattus norvegicus with 6 samples.

Results

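Of the 375 miRNA assays on the TaqMan rodent card, 8 read miRNAs that are best known from blood cells and from inflammation. They were taken by name alone, as every mouse (mmu-) or rat (rno-) assay numbered miR-142, miR-146, miR-150, miR-155, miR-223 or miR-451, whatever its letter or arm. The rule uses no measured value, although it was drawn up with earlier results of these data known. All 8 carry the mouse prefix and were run on rat RNA. The card was used to compare MDCs, the small loosely attached cells that appear in long-term cultures of purified adult Wistar-Kyoto rat cardiomyocytes, with cardiomyocytes of the same strain, and no drug, transgene or mutation separated the groups. For both groups the labels name donors of 2 months and 2 weeks of culture in medium rich in mitogens, whereas the paper describes the cardiomyocytes of this comparison as freshly isolated. Each well gave a Ct, the PCR cycle at which its fluorescence crossed a threshold, and a lower Ct stands for more template. Levels are given here as the mean Ct of the 4 U6 wells of a set minus the Ct of the miRNA, in log2 units in which each unit is about a doubling, and differences are MDC minus Myocyte.

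The deposited values come as MDC 1, MDC 2 and MDC 3 and as Myocyte 1, Myocyte 2 and Myocyte 3. The 3 MDC sets lacked signal in identical wells, and so did Myocyte 2 and Myocyte 3, so each of these was treated as repeated readings of a single card, and the test compared 1 MDC card with 2 Myocyte cards. The methods mention both biological and technical repeats, but no source used here says which of the sets are which, so p-values measure only the spread between the 2 Myocyte cards, which may be technical, and the exact permutation test of 2 cards against 1 could not give a p under 0.333. The sets had signal for 201 miRNAs in MDCs and for 203 to 212 in Myocytes, and the number of molecules behind a Ct is unknown. Of the 7 assays of a cardiomyocyte marker list (miR-499, miR-208, miR-133 and miR-1), 5 had signal in MDCs, at mean Ct values of 22.7 to 28.1. All 7 had signal in Myocytes, at mean Ct values of 11.0 to 26.6, so the marker miRNAs of the labelled cell type were present there.

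A miRNA guides a silencing complex to mRNAs that pair with its seed, bases 2 to 8 from its 5′ end. miR-142 is made in nearly all blood lineages, miR-150 in mature lymphocytes, where it holds down the transcription factor Myb, and miR-223 in granulocytes and other myeloid cells. miR-155, cut from the transcript of its host gene Mir155hg (also called BIC), and miR-146a are induced by NF-kB in activated immune cells, miR-155 as a promoter of inflammatory responses and miR-146 as a brake that represses the adaptors IRAK1 and TRAF6. miR-451 accumulates in red cell precursors and is matured by Argonaute 2 without Dicer. Several of these miRNAs, miR-155 and miR-146 among them, are also made by cells outside the blood, such as stimulated fibroblasts.

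RefSeq sequences of the rat (build GRCr8) matched 7 of the 8 assays. An assay without an arm in its name was taken to read the abundant arm of its hairpin, and whether each mouse assay fits the rat sequence to the base was not checked. The mature miRNAs are shown because the seed tells which members could share targets, with the seed in capitals.
rno-miR-142-3p: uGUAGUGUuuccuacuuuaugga
rno-miR-142-5p: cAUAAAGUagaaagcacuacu
rno-miR-146a-5p: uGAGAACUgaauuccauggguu
rno-miR-146b-5p: uGAGAACUgaauuccauaggcugu
rno-miR-155-5p: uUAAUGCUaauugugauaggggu
rno-miR-223-3p: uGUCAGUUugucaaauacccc
rno-miR-451-5p: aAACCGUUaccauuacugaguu
Only miR-146a and miR-146b had a seed in common, and among the 693 mature rat miRNAs of the table no other carried any of these seeds. The first 17 bases of miR-146a and miR-146b are identical, and within the length of miR-146a the sequences differ by 2 substitutions, G18A and U21C (miR-146a base first, positions counted from its 5′ end). miR-146b has 2 further bases at its 3′ end.

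The hairpins of miR-142 and miR-451 bear on the 2 members that were seen in 1 group only, and are printed with the arms that were assayed in capitals.
Mir142: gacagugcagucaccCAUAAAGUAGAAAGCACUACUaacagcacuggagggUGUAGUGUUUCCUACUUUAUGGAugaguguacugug
Mir451a: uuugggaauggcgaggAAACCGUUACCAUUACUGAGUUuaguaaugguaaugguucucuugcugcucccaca
Mir142 lies at chr10:73055104-73055190 on the plus strand, within the bounds of the protein-coding gene Tspoap1, and supplies both the 5p and the 3p assay from 1 stem of 87 bases. Mir451a lies at chr10:63459569-63459640, also on the plus strand, 90 bases from Mir144, with which it forms the erythroid cluster, and no assay for miR-144 was on the card. Mir155 (chr11:37261114-37261178, plus strand) sits inside its host Mir155hg. Mir223 (chrX:65151383-65151492, plus strand) and Mir146a (chr10:28349996-28350090, minus strand) overlap long non-coding RNAs, and Mir146b (chr1:255144860-255144947, plus strand) overlaps the protein-coding gene C1h10orf95.

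Of the 8 assays, 6 had signal on every card and were tested. Against U6, 5 of these 6 were lower in MDCs and 1, miR-155, was higher, at an adjusted p under 0.05 from limma over all 157 miRNAs with signal on every card. Calls were common on this card: 52.2% of the 157 miRNAs were lower and 28% were higher. With levels counted from the mean of these 157 miRNAs in a set, 41.4% were lower and 40.8% higher. Of the members 4 were then lower, miR-146a no longer among them, and 1 was higher. The median difference was −3.72 for the 6 members and −0.80 for all 157 miRNAs. The other 2 assays had signal in 1 group only, miR-142-5p in MDCs and miR-451 in Myocytes. Signal in 1 group only was common: of all 375 miRNA assays, 35 had it in MDCs only and 39 on both Myocyte cards only. As bulk RNA was measured, fewer cells that make a miRNA and less of it per cell cannot be told apart for any of these values.

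**Figure D1:**
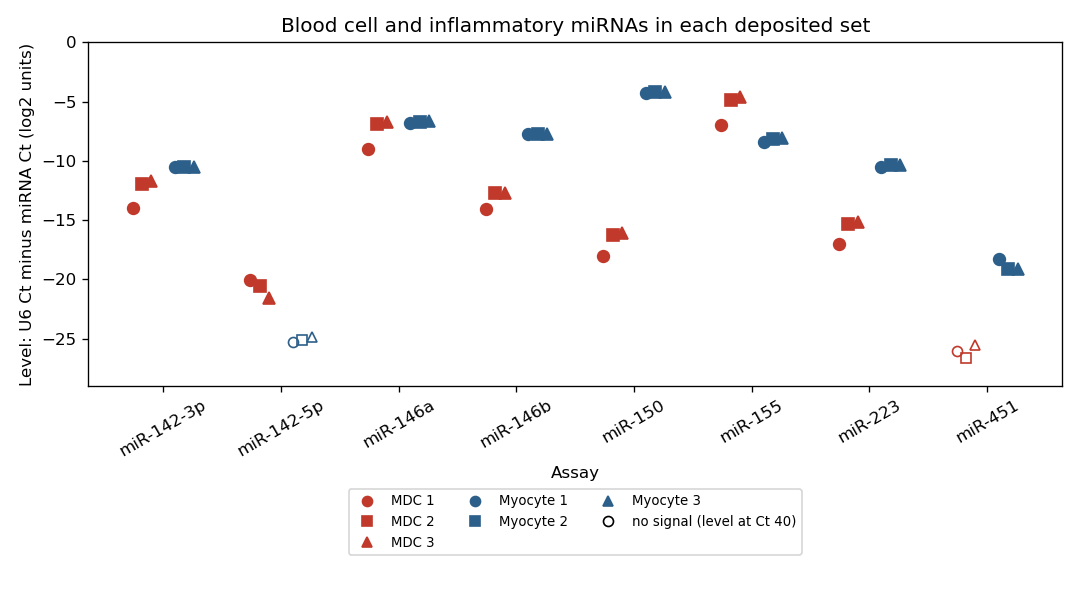
Level of each assay (U6 Ct minus miRNA Ct, log2 units, vertical axis) in the 3 MDC sets (red) and the 3 Myocyte sets (blue), 1 point per set, with open points at the level of Ct 40 where a set had no signal. miR-150 shows the widest gap between the groups, with levels of −18.00 to −16.09 in MDCs and −4.30 to −4.17 in Myocytes, and miR-155 is the only assay with signal in both groups that lies higher in every MDC set.

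Among the members, miR-150 differed most between the groups. The Ct of mmu-miR-150 was 31.98, 29.63 and 30.52 in MDC 1, MDC 2 and MDC 3, against 19.0, 19.1 and 19.3 in Myocyte 1, Myocyte 2 and Myocyte 3. The nearest readings of the groups were thus over 10 cycles apart, and the levels, −18.00, −16.24 and −16.09 in MDCs against −4.30, −4.21 and −4.17 in Myocytes, were separated by a gap of 11.79 log2 units. The difference of miR-150 was −12.53 ± 0.35 log2 units (SE, 1 MDC card and 2 Myocyte cards), a level 5928-fold lower in MDCs (adjusted p = 3.57e-76). This was the third lowest difference of the 157, at rank 3 counted from the lowest. Without MDC 1 the difference was −11.92 (adjusted p = 3.85e-73). Among detected miRNAs, miR-150 exceeded the level of 7.5% of the others in MDCs and of 85.1% and 86.3% of the others on the Myocyte cards, an order that also depends on the efficiency of each assay.

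miR-223, the myeloid member, was lower as well. The Ct of mmu-miR-223 was 31.0, 28.7 and 29.6 in the MDC sets, against 25.2, 25.3 and 25.5 in the Myocyte sets. Levels were −17.01, −15.34 and −15.12 in MDCs and −10.48, −10.38 and −10.35 in Myocytes, with no overlap. The difference was −5.40 ± 0.35 (SE, 1 and 2 cards), or 42.3-fold lower in MDCs (adjusted p = 8.38e-33), and without MDC 1 it was −4.81 (adjusted p = 2.59e-28).

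miR-142-3p, the pan-leukocyte member, had a smaller difference. The Ct of mmu-miR-142-3p was 27.98, 25.36 and 26.13 in the MDC sets, against 25.2, 25.4 and 25.6 in the Myocyte sets, so that the raw Ct values of the groups overlapped. After subtraction from U6, whose mean Ct was 13.4 to 14.4 in MDCs and 14.7 to 15.1 in Myocytes, the levels no longer overlapped, at −14.01, −11.97 and −11.69 in MDCs and −10.52, −10.53 and −10.49 in Myocytes. The difference was −2.04 ± 0.35 (SE, 1 and 2 cards), 4.12-fold lower in MDCs (adjusted p = 5.20e-08). It rested in part on MDC 1, without which it was −1.32 (adjusted p = 0.000337).

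The opposite arm of the same hairpin gave a late signal in MDCs only. The Ct of mmu-miR-142-5p was 34.0, 34.0 and 36.0 in the MDC sets, and no Myocyte set had a signal. With the missing Ct at 40, the difference was 4.40 log2 units. Read so, the arms ran in opposite directions, but the 5p assay was near the end of the range, with 1.5% of the other miRNAs detected in MDCs below its level. In this range single wells were often lost: of 52 Myocyte wells with a Ct from 32 to 40, 18 (34.6%) had no signal on the other Myocyte card, against 3 of 326 wells (0.92%) with a Ct below 30.

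The erythroid member showed the reverse pattern, again from late signals. No MDC set had a signal for mmu-miR-451, whose Ct was 32.9, 34.0 and 34.2 in the Myocyte sets. Its level was −18.69 ± 0.62 in Myocytes (SD, n = 2 cards), and with the missing Ct at 40 the difference was −7.37 log2 units. Of Myocyte wells with a Ct from 32 to 40, 34.6% had no signal on the other Myocyte card. A lost well on the MDC card can thus not be told from a lower level. Only 7.11% and 3.96% of the other detected miRNAs were below it on the 2 Myocyte cards.

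miR-155 was the member that rose. The Ct of mmu-miR-155 was 20.9, 18.3 and 19.1 in the MDC sets, against 23.1, 23.0 and 23.2 in the Myocyte sets, so that each MDC Ct was earlier than each Myocyte Ct. Levels were −6.97, −4.88 and −4.62 in MDCs and −8.44, −8.12 and −8.06 in Myocytes, with a gap of 1.09 between the nearest sets. The difference was 2.77 ± 0.35 (SE, 1 and 2 cards), or 6.84-fold higher in MDCs (adjusted p = 7.34e-13), at rank 134 of the 157 counted from the lowest. The size varied with the reading: it was 1.30, 3.39 and 3.64 with MDC 1, MDC 2 and MDC 3 taken alone, and 3.51 without MDC 1 (adjusted p = 2.91e-18). Among detected miRNAs its level exceeded that of 85% of the others in MDCs and of 61.4% and 61.6% of the others on the Myocyte cards.

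**Figure D2:**
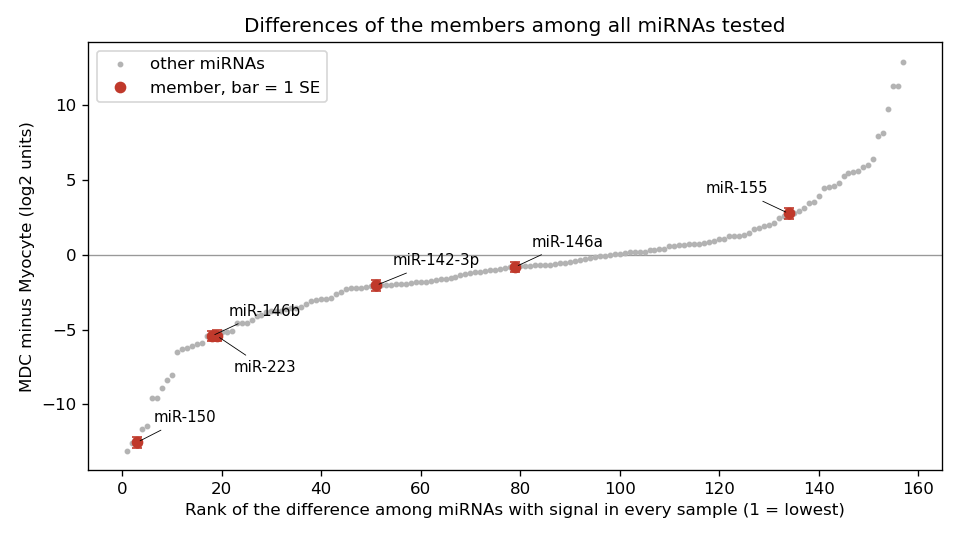
Difference between MDCs and Myocytes (log2 units, vertical axis) against its rank among the 157 miRNAs with signal on every card (horizontal axis), with members in red, bars of 1 SE, and other miRNAs in grey. miR-150 stands at rank 3 and miR-155 at rank 134, and miR-146a lies at rank 79, the middle of the distribution.

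The miR-146 members divided by gene. The Ct of mmu-miR-146b was 28.01, 26.14 and 27.13 in the MDC sets, against 22.4, 22.7 and 22.8 in the Myocyte sets. Its levels of −14.03, −12.75 and −12.70 in MDCs were all below the −7.75, −7.75 and −7.70 of Myocytes, a difference of −5.42 ± 0.35 (SE, 1 and 2 cards), 42.9-fold lower in MDCs (adjusted p = 5.97e-33). miR-146a, with the same seed, barely moved. The Ct of mmu-miR-146a was 23.0, 20.3 and 21.2 in the MDC sets, against 21.5, 21.6 and 21.8 in the Myocyte sets, and the levels overlapped, at −9.004, −6.93 and −6.72 in MDCs and −6.83, −6.68 and −6.65 in Myocytes. Its difference of −0.80 ± 0.35 (SE, 1 and 2 cards) passed the threshold (adjusted p = 0.0296) but equalled the median of all 157 miRNAs, and without MDC 1 it was −0.08 (adjusted p = 0.846).

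Apart from miR-146a, the tested members did not overlap when the 3 MDC sets were set against the 3 Myocyte sets, 4 lying lower and 1 higher in MDCs. Over all 157 miRNAs, 49.7% lay lower in every MDC set and 23.6% lay higher. The spread among the MDC readings was larger than that among the Myocyte sets for each tested member, with an SD of 0.75 to 1.29 in MDCs and of 0.02 to 0.20 in Myocytes. MDC 1 gave the lowest level of all 6 tested members, 1.31 to 2.22 log2 units below the mean of MDC 2 and MDC 3, where the median of all 157 miRNAs was 1.39 below. With the MDC readings entered as 3 samples in limma, the standard error became 0.72. miR-150, miR-146b, miR-223, miR-155 and miR-142-3p passed the threshold (adjusted p of 0.00929 for miR-142-3p and less for the others), and miR-146a did not (adjusted p = 0.348). Over all 157 miRNAs in this setting, 41.4% were called lower and 19.7% higher. If the readings are of 1 card, this setting adds no replication between samples.

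The Ct gap between a pair of members on the same card uses no normalizer and removes a shift that all wells of a reading share. A single gap depends on the assays, so only its change between the groups was read. Of the 15 pairs of tested members, 14 had gaps that did not overlap between MDCs and Myocytes, and the median size of the change was 4.81 cycles. Over all 12246 pairs of the 157 miRNAs, 86.3% had gaps without overlap and the median size was 3.49 cycles, so the share among the members was near that of miRNA pairs in general. The widest change was that of miR-150 against miR-155. The Ct of miR-150 minus that of miR-155 was 11.0 to 11.5 cycles in MDCs and −4.14 to −3.89 cycles in Myocytes, a change of 15.31 cycles.

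The pair with 1 seed moved apart in the same way. The Ct of miR-146b minus that of miR-146a was 5.03 to 5.98 cycles in MDCs and 0.92 to 1.07 cycles in Myocytes, a change of 4.62 cycles. The miRNAs that NF-kB induces also separated, since miR-155 came 2.03 to 2.09 cycles before miR-146a in MDCs, whereas in Myocytes the Ct of miR-146a minus that of miR-155 was −1.61 to −1.42 cycles. Of the blood cell miRNAs, miR-223 came 3.00 to 3.43 cycles after miR-142-3p in MDCs, whereas in Myocytes their Ct was nearly the same, with miR-142-3p later by 0.04 to 0.15 cycles. The single pair with overlapping gaps was miR-223 and miR-146b. The Ct of miR-223 minus that of miR-146b was 2.42 to 2.98 cycles in MDCs and 2.63 to 2.73 cycles in Myocytes, a change of −0.02 cycles.

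**Figure D3:**
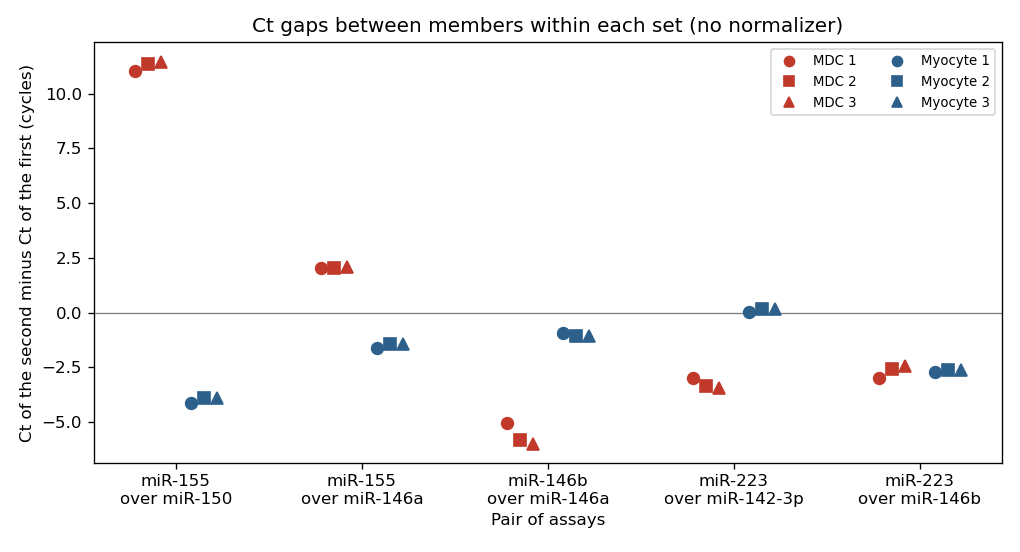
Ct of the second assay minus Ct of the first (cycles, vertical axis) for 5 pairs of members, 1 point per deposited set, MDC sets in red and Myocyte sets in blue. The Ct of miR-150 minus that of miR-155 lies at 11.0 to 11.5 cycles in MDCs and at −4.14 to −3.89 in Myocytes, and the gaps of miR-223 and miR-146b overlap between the groups.

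The direction of each tested member except miR-155 turned with at least 1 normalizer. U6 and snoRNA135 moved together, and with snoRNA135 alone the differences were −12.40 for miR-150, −5.29 for miR-146b, −5.27 for miR-223, −1.91 for miR-142-3p and 2.91 for miR-155, all past the threshold, and −0.67 for miR-146a (adjusted p = 0.158). With snoRNA135, 45.9% of all 157 miRNAs were called lower and 25.5% higher. The other controls shifted between the groups: the Ct of U87 was 31.0, 31.2 and 33.2 in MDCs and 18.6, 18.5 and 18.7 in Myocytes, and that of Y1 was 22.0, 23.3 and 25.5 in MDCs and 19.6, 20.3 and 20.5 in Myocytes. Replacing U6 by Y1 raised the median difference of all miRNAs by 4.49 log2 units, and by U87 by 14.09. With Y1, miR-142-3p (2.45) and miR-146a (3.69) turned higher, and miR-146b (−0.93) and miR-223 (−0.91) lost their calls. With U87 all 6 members were higher. miR-155 was higher with every normalizer tried, and miR-150 was lower with each except U87. Counted from the median difference of all miRNAs, a distance that no normalizer changes, the members stood at −11.73 for miR-150, −4.62 for miR-146b, −4.60 for miR-223, −1.24 for miR-142-3p, 0 for miR-146a and 3.58 for miR-155.

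**Figure D4:**
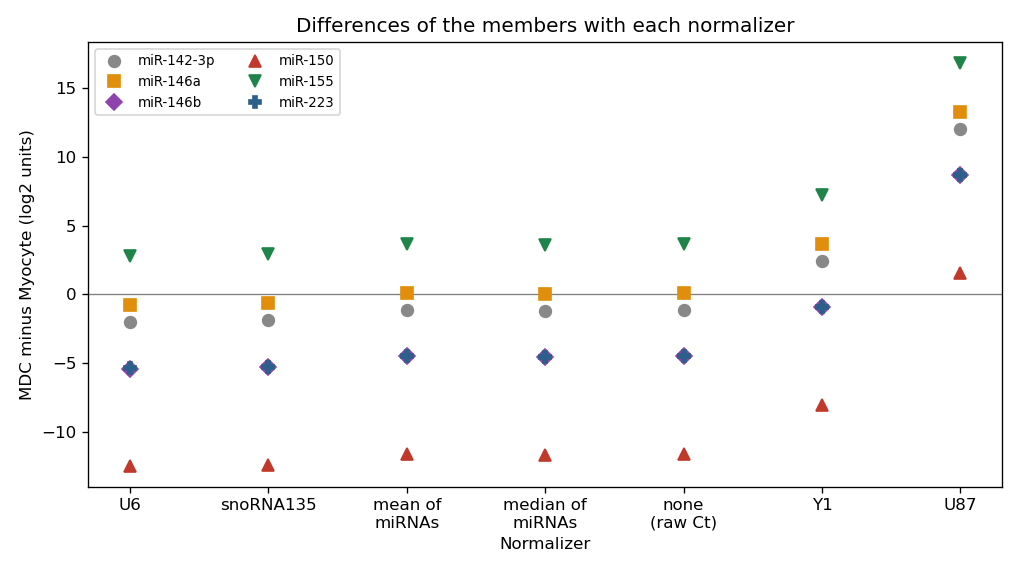
Difference between MDCs and Myocytes (log2 units, vertical axis) of the 6 tested members, 1 symbol per miRNA. The horizontal axis holds U6, snoRNA135, the mean and the median of the miRNAs, raw Ct, Y1 and U87. Averages of several controls other than U6 are not drawn. A normalizer shifts all members alike, so their order cannot change. The whole set shifts up with Y1 and U87, so that miR-150 moves to 1.56 with U87 from −12.53 with U6.

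A list of other miRNAs of blood cells and inflammation, drawn up from general knowledge, held 13 names, of which 9 were on the card. Of these 9, 3 were higher and 2 lower in MDCs, 1 did not pass, 1 had signal in Myocytes only, 1 on 1 Myocyte card only and 1 nowhere, and the median of those tested was 1.31. Of its 4 assays grouped as inflammatory, 3 were higher and 1 had no signal, where 28% of all 157 miRNAs were higher. Of the NF-kB-induced members, miR-155 was higher, and miR-146a, called lower against U6, equalled the median of all 157 miRNAs. miR-146b, with the same seed as miR-146a, was lower. miR-132 rose by 5.31 log2 units (adjusted p = 4.37e-32), with Ct values of 19.5 to 22.0 in MDCs and 26.6 to 27.4 in Myocytes, and miR-21, also abundant in fibroblasts, rose by 4.46 (adjusted p = 1.37e-25). miR-9 rose by 2.83 (adjusted p = 2.72e-13), and miR-147 had no signal. The lymphoid assays differed less: miR-181a (−1.24) and miR-181c (−1.80) were lower, and miR-342-3p, with a difference of −0.21, did not pass (adjusted p = 0.582). miR-486, found in red cell precursors and in muscle, gave no signal in MDCs and a Ct of 26.8 to 27.6 in Myocytes, a bound of −13.79.

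Markers of cell types moved in both directions against U6, where 52.2% of all 157 miRNAs were called lower in MDCs and 28% higher. Both assays of the endothelial list were lower in MDCs, with summed levels of −11.89 in MDCs and −3.58 in Myocytes, and miR-126-3p had a mean Ct of 26.0 in MDCs and 18.5 in Myocytes. Of 5 fibroblast assays, 4 were higher and 1 had signal in MDCs only, with summed levels of −1.21 in MDCs and −5.87 in Myocytes. Both smooth muscle assays were lower (−2.18 in MDCs and −0.13 in Myocytes, summed). Their differences were −1.99 for miR-145 and −2.64 for miR-143, beside a median of −0.80 for all 157 miRNAs. Of the 7 cardiomyocyte assays, 5 were lower in MDCs, with differences from −12.59 (miR-133a) to −9.55 (mouse assay of miR-1). The other 2, miR-208 and miR-208b, had signal in Myocytes only, with bounds of −18.49 and −14.28. The part of these cell types in the differences of the members was not tested.

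The patterns most like those of the members were found by the root mean square distance between levels over the 6 sets, each miRNA centred on its own mean, among 151 other miRNAs with signal in all sets. For miR-155 the nearest were miR-9 (0.20 log2 units) and miR-224 (0.22). For miR-150 they were the rat assay of miR-1 (0.49) and miR-133a (0.51), both abundant in striated muscle. For miR-223 they were miR-32 (0.29) and miR-30e (0.30), for miR-146b rno-miR-345-3p (0.25) and miR-30e (0.31), for miR-142-3p miR-186 (0.17) and let-7d (0.19), and for miR-146a miR-497 (0.05) and miR-340-3p (0.11). The sets behind these distances were treated as repeated readings of few cards.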

How the data were processed

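The deposited values are Ct values in PCR cycles, which the authors obtained from total RNA that was reverse transcribed, pre-amplified and loaded on TaqMan cards, and a table of the same values minus mean U6, which equalled the recomputed values to within 5e-05 cycles. Threshold and baseline settings are not given in the sources used here. A well listed as undetermined or at Ct 40 was read as no signal. The members and lists were chosen with earlier results of these data known, as was the averaging of sets into cards. All members are named, with the 2 nearest patterns of each tested member, and the other list members whose difference or bound exceeded 4 log2 units. Members of that list and controls named beyond this rule were chosen after their values were seen. Levels were fitted with limma 3.58.1 in R 4.3.3 over the 157 miRNAs with signal on every card, with Benjamini-Hochberg adjustment over all of them. The moderation assigned 1 common SD of 0.28 to all miRNAs, and the MDC card was assumed to vary like the Myocyte cards. The fit was checked on simulated data in which all cards varied alike, so a different spread of the MDC card was not covered. A missing Ct of 40 gave bounds. Alternatives covered normalizers, limits of detection, moderation, the unpaired test of the methods, single readings and left-out sets. Those with the mean of snoRNA135 and Y1 and with MDC readings as 3 samples were added after the data had been seen. Figures were drawn with matplotlib 3.10.9.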

Additional observations from a re-analysis of the deposited data

How the results depend on the processing

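Calls against U6 are limited by 1 MDC card and 2 Myocyte cards, and late signals by the loss of single wells. With the other endogenous controls averaged, members lower in MDCs numbered 1 and members higher 5, with Y1 alone 1 and 3, and with the mean of snoRNA135 and Y1 3 and 2. Over all 157 miRNAs, 82 lower and 44 higher against U6, the counts became 10 and 140, 16 and 120, and 36 and 87 in the same order. With U87 alone limma gave 0 members lower and 6 higher, and 0 lower (also at an unadjusted p under 0.05) and 157 higher of all miRNAs. The methods' unpaired test on 6 sets with adjustment gave 3 members lower and 1 higher, with 61 lower and 33 higher of all 157 miRNAs. Missing Ct values at 40 gave 2 members higher, miR-142-5p joining miR-155, with 113 lower and 80 higher of 240 miRNAs. Signal in 1 group only was found for 1 member below Ct 35 and 0 below Ct 32. Signs turned for miR-142-3p with the other controls (4.20), Y1 (2.45), U87 (12.05) and the mean of snoRNA135 and Y1 (0.27). They turned for miR-146a with the same 4 (5.44, 3.69, 13.29 and 1.51). They also did with the mean (0.10) and median (0.037) of the miRNAs with signal on every card. The same held with raw Ct (0.11) and with MDC reading 3 alone (0.028). They also turned for miR-146b and miR-223 with the other controls (0.82 and 0.84) and U87 (8.67 and 8.69), and for miR-150 with U87 (1.56). The cause was not tested.

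On 6 separate sets with a replicate block, 4 members were lower and 1 higher, as without it. Over all 157 miRNAs, 69 were lower and 34 higher with the block, and 69 and 35 without it. Same-numbered sets deviated together with correlations of 0.12, −0.08 and 0.24, so the numbers were not taken as pairs. Without Myocyte 1 no test was possible, and the differences kept their signs.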

Other observations

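The MDC sets did not order the wells alike. miR-142-3p was lowest in MDC 1, at a level of −14.01 against −11.97 in MDC 2 and −11.69 in MDC 3, while miR-142-5p, from the same hairpin, was highest in MDC 1, at −20.07 against −20.58 and −21.60. The control Y1 followed the second order, with Ct values of 22.0, 23.3 and 25.5 in MDC 1, MDC 2 and MDC 3, and so did U87, with 31.0, 31.2 and 33.2. These sets were treated as readings of 1 card from their shared wells of no signal alone. Over miRNAs, the Ct values of MDC 2 and MDC 3 correlated with those of MDC 1 at 0.973 and 0.959. For Myocyte 3 with Myocyte 2 the correlation was 0.9999.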
